A study of Homo sapiens with 6 samples.

Results

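HERVH is an endogenous retrovirus family of primates, and its RNA was followed here through 6 entries of a table of repeat counts. The members are HERVH-int, the internal region that once encoded the viral proteins, and every entry named LTR7 with or without 1 further letter: LTR7, LTR7A, LTR7B, LTR7C and LTR7Y. They are 6 of 15600 entries in the table and were found by name; the rule uses no measured value, although it was written with earlier results of these data known. All 6 passed the filter on low counts.

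In a retrovirus the long terminal repeat (LTR) at the upstream end holds the promoter, and the copy at the downstream end holds the signal that ends the transcript. LTR7 and its lettered variants are the LTRs of HERVH copies of different age and sequence. In human pluripotent cells LTR7-driven HERVH copies are transcribed into long noncoding RNAs and into the first exons of chimeric transcripts, and pluripotency factors such as OCT4 and NANOG bind the LTRs. In human embryos LTR7B has been linked with the 8-cell and morula stages and LTR7Y with the blastocyst and with naive pluripotent cells.

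All libraries came from H9, a long-established line of human embryonic stem cells, and total RNA was sequenced from 3 groups of 2 libraries. RSeT+DT cells were kept in RSeT, a commercial naive-like medium, to which DZNep at 10 nM and TSA at 5 nM were added, with collection at 48 hours. DZNep (3-deazaneplanocin A) blocks S-adenosylhomocysteine hydrolase and so lowers histone methylation by the Polycomb enzyme EZH2, and TSA (trichostatin A) inhibits histone deacetylases. RSeT cells had the same medium without the added drugs, and primed cells were grown in mTeSR; DZNep and TSA were given together, so their parts cannot be told apart. All 3 groups came from 1 cell line, and the labels do not say whether replicates were separate cultures. A p-value here therefore reflects library-to-library spread within groups, which the fits estimate partly or wholly by sharing it across features. Part or all of that spread may be technical.

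Repeat counts totalled 13064045 and 11520770 in the RSeT+DT libraries, 38312112 and 17191110 in the RSeT libraries, with 16838730 and 13628911 in the primed libraries, so RSeT replicate 1 was the deepest. A count is the sum over all genomic copies of an entry. No genomic position, copy or strand belongs to a value, reads of related LTR7 variants may be shared among entries, and HERVH-int and its LTRs can lie on the same transcript. Counts were not divided by length, so levels are compared between libraries and not between entries. In these bulk samples, fewer cells with a transcript and less of it per cell cannot be told apart.

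HERVH-int RNA was highest in RSeT+DT cells and lowest in primed cells. The deposited level was 118627 and 114855 counts per 1000000 repeat counts (CPM) in the RSeT+DT libraries, 73442 and 75615 CPM in the RSeT libraries, against 23829 and 26519 CPM in the primed libraries. The libraries of the 3 groups did not overlap, and replicates of a group differed by at most 1.11-fold. As a share of all repeat counts this was 11.7 ± 0.27% in RSeT+DT cells, 7.45 ± 0.15% in RSeT cells and 2.52 ± 0.19% in primed cells (mean ± SD, n = 2 each). The exact 95% Clopper-Pearson interval of the smallest share, in primed replicate 1, was 2.38% to 2.39%, so counting error is far smaller than the spread between replicates. These intervals cover counting error only. By count, and not per length, HERVH-int ranked 2 of all entries in each of the 6 libraries, below 7SLRNA, the RNA part of the signal recognition particle. The entry next below it was 7SK, a small nuclear RNA, in the RSeT+DT libraries (23002 and 22301 CPM), ALR/Alpha, the alpha satellite of centromeres, at 32353 and 32552 CPM in the RSeT libraries, and AluJb, an older Alu element, at 23402 and 24693 CPM in the primed libraries.

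With TMM normalisation, HERVH-int rose by 0.80 on the log2 scale in RSeT+DT against RSeT cells (SE 0.025, 1.74-fold; adjusted p = 4.12e-18, edgeR's quasi-likelihood test with Benjamini-Hochberg adjustment over 4665 features). It rose by 1.70 in RSeT against primed cells (SE 0.026, 3.25-fold; adjusted p = 2.92e-26, edgeR) and by 2.50 in RSeT+DT against primed cells (SE 0.027, 5.66-fold; adjusted p = 7.12e-30, edgeR). The comparisons share libraries, so the 3 fold changes are not independent of each other. The smallest two-sided p that exact permutation of 2 and 2 libraries allows is 0.33, so these p-values rest on the model. Among the 1154 tested entries other than simple repeats, small RNA and ribosomal RNA, the log2 fold change of HERVH-int ranked 3 from the top in RSeT+DT against RSeT, 14 in RSeT against primed and 7 in RSeT+DT against primed cells. Among all 4665 features, simple repeats included, it ranked 312, 114 and 57 in these comparisons. The entry also carried much of the summed change in the tables. Gains were summed in CPM over all entries whose mean was higher in the group named first. HERVH-int held 27.6% of this sum in RSeT+DT against RSeT, 33.6% in RSeT against primed and 55.1% in RSeT+DT against primed cells. By size of gain it ranked 1 in both comparisons with primed cells, but 2 in RSeT+DT against RSeT. Only 7SLRNA gained more there, from 147229 and 141021 CPM (RSeT replicates 1 and 2) to 212599 and 191677 CPM (RSeT+DT replicates 1 and 2).

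**Figure D1:**
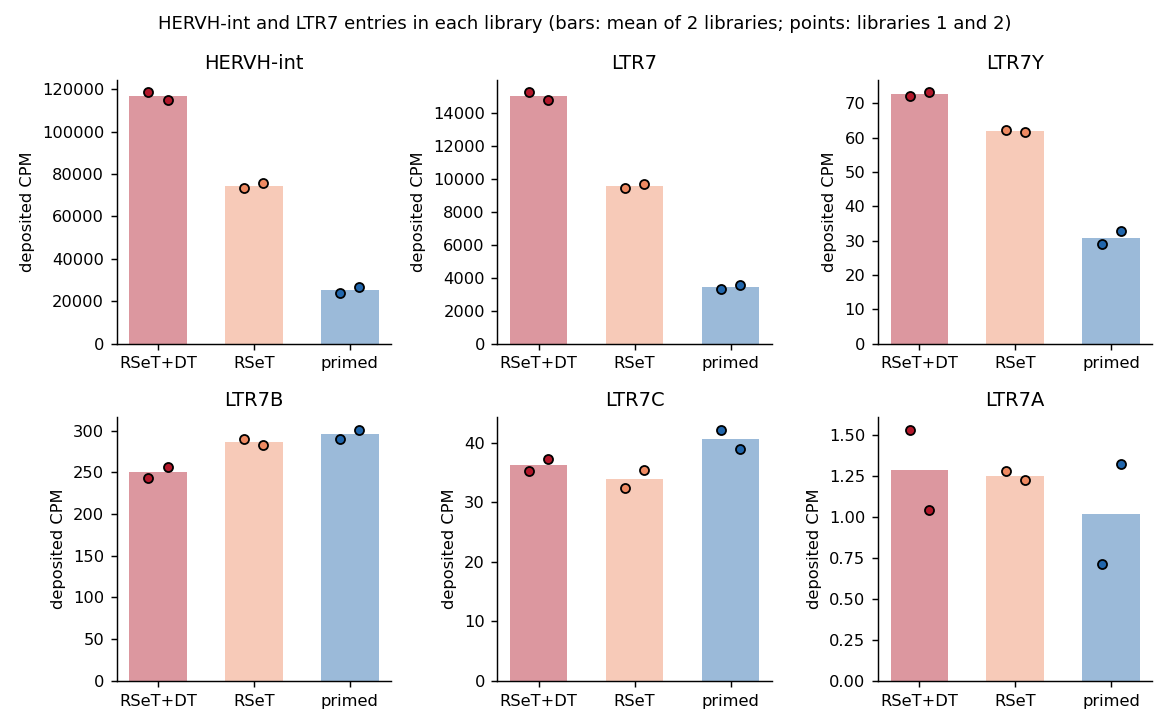
Deposited CPM (y axis, from 0, a scale of its own in each panel) of the 6 entries in RSeT+DT, RSeT and primed cells; bars are means of 2 libraries and points are the libraries. HERVH-int, LTR7 and LTR7Y step down over the 3 groups with no overlap, at 118627 and 114855 CPM in RSeT+DT against 23829 and 26519 CPM in primed libraries for HERVH-int. LTR7B and LTR7C vary little, and the LTR7A libraries of different groups overlap.

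LTR7, the LTR most often found with full-length HERVH, moved with the internal region. It had 15231 and 14768 CPM in the RSeT+DT libraries, 9417 and 9660 CPM in the RSeT libraries, against 3321 and 3574 CPM in the primed libraries. No libraries of different groups overlapped. LTR7 rose by 0.81 in RSeT+DT against RSeT cells (SE 0.032, log2 scale; adjusted p = 5.07e-16, edgeR), by 1.60 in RSeT against primed cells (SE 0.032; adjusted p = 2.09e-23, edgeR) and by 2.41 in RSeT+DT against primed cells (SE 0.033; adjusted p = 2.09e-27, edgeR). Its counts per 1000 HERVH-int counts were 128.4 and 128.6 in the RSeT+DT libraries, 128.2 and 127.7 in the RSeT libraries, against 139.4 and 134.8 in the primed libraries. This ratio needs no scaling of the libraries. The RSeT+DT and RSeT values differed by less than 1 count per 1000, and both primed values lay above all others.

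The ratio was tested by fitting the whole table with the HERVH-int count of each library in place of its total. LTR7 relative to HERVH-int had a log2 difference of 0.0056 (SE 0.083) in RSeT+DT against RSeT, of -0.099 (SE 0.083) in RSeT against primed and of -0.093 (SE 0.083) in RSeT+DT against primed cells. None passed, with adjusted p = 0.954, 0.238 and 0.264 (edgeR), which does not show that the ratio was equal in the groups. The SE and p-values of this fit, here and for the entries below, rest mostly on a spread shared across features. They do not measure how far the ratio of 1 entry differed between replicates. With LTR7 in place of HERVH-int as the divisor, HERVH-int in RSeT against primed cells stood at 0.098 (SE 0.050; adjusted p = 0.0539, edgeR), also not passing.

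LTR7Y, the variant tied to naive cells, was also highest in RSeT+DT cells but rose less than the internal region. It had 72.0 and 73.2 CPM in the RSeT+DT libraries, 62.2 and 61.5 CPM in the RSeT libraries, against 28.9 and 32.7 CPM in the primed libraries. Again the 3 groups did not overlap. LTR7Y rose by 0.38 in RSeT+DT against RSeT cells (SE 0.059; adjusted p = 7.81e-06, edgeR), by 1.14 in RSeT against primed cells (SE 0.065; adjusted p = 1.2e-13, edgeR) and by 1.53 in RSeT+DT against primed cells (SE 0.068; adjusted p = 9.11e-16, edgeR). Per 1000 HERVH-int counts it had 0.607 and 0.637 in the RSeT+DT libraries, 0.847 and 0.813 in the RSeT libraries, against 1.21 and 1.23 in the primed libraries. This ratio fell by 0.42 in RSeT+DT against RSeT (SE 0.088; adjusted p = 5.05e-06, edgeR), by 0.56 in RSeT against primed (SE 0.094; adjusted p = 5.13e-09, edgeR) and by 0.98 in RSeT+DT against primed cells (SE 0.097; adjusted p = 2.02e-23, edgeR) on the log2 scale. So the smaller rise of LTR7Y than of HERVH-int passed the test of the difference in each comparison. In the same fits 66.8%, 93.6% and 96.8% of all 4664 features fell relative to HERVH-int, so passing is not particular to LTR7Y.

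LTR7B, the variant tied to the 8-cell and morula stages, differed little between groups, and the direction depended on the scaling. It had 242.8 and 256.7 CPM in the RSeT+DT libraries, 289.8 and 282.4 CPM in the RSeT libraries, against 289.8 and 301.1 CPM in the primed libraries. In deposited CPM the RSeT+DT libraries were the lowest and lay outside the range of the others. With TMM the log2 fold change was -0.044 in RSeT+DT against RSeT (SE 0.035; adjusted p = 0.332, edgeR), 0.09 in RSeT against primed (SE 0.034; adjusted p = 0.0397, edgeR) and 0.04 in RSeT+DT against primed cells (SE 0.036; adjusted p = 0.343, edgeR). The call in RSeT against primed cells was lost without RSeT replicate 1, without primed replicate 1 and without primed replicate 2 (0.064, 0.089 and 0.090). It was also lost with no filter (0.10), with a mean count of at least 50 (0.064) and with totals that leave out the members (0.039). All 3 directions turned with the scaling. Scaled on transposons and satellites alone, that is with simple repeats, small RNA and ribosomal RNA left out before TMM, LTR7B stood at 0.17 with a call in RSeT+DT against RSeT, at -0.073 without a call in RSeT against primed and at 0.10 with a call in RSeT+DT against primed cells. With library totals it stood at -0.20 with a call, -0.045 without a call and -0.24 with a call in the same order of comparisons.

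Set against the internal region, LTR7B fell in every comparison, and no scaling enters that value. Per 1000 HERVH-int counts it had 2.05 and 2.23 in the RSeT+DT libraries, 3.95 and 3.73 in the RSeT libraries, against 12.2 and 11.4 in the primed libraries, with no overlap. The ratio fell by 0.84 in RSeT+DT against RSeT (SE 0.076; adjusted p = 1.12e-27, edgeR), by 1.61 in RSeT against primed (SE 0.076; adjusted p = 1.94e-96, edgeR) and by 2.46 in RSeT+DT against primed cells (SE 0.079; adjusted p = 3.39e-203, edgeR) on the log2 scale. Falls relative to HERVH-int were common, since HERVH-int itself rose: 66.8%, 93.6% and 96.8% of all 4664 features fell relative to it in these 3 comparisons, while 0.643%, 1.01% and 0.557% rose, so a fall of this kind is not particular to the LTR7 variants. Of the 5 LTR7 entries, 3 fell relative to HERVH-int in RSeT+DT against RSeT (LTR7B, LTR7C and LTR7Y), 4 in each comparison with primed cells (these and LTR7A), and none rose.

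LTR7C, another lettered variant, showed small differences between groups, with calls that depended on the scaling. It had 35.3 and 37.2 CPM in the RSeT+DT libraries, 32.3 and 35.4 CPM in the RSeT libraries, against 42.2 and 39.0 CPM in the primed libraries. The RSeT+DT and RSeT libraries overlapped in deposited CPM, and the primed libraries were the highest. With TMM, LTR7C rose by 0.26 in RSeT+DT against RSeT cells (SE 0.081; adjusted p = 0.0102, edgeR). That call was lost in 6 of 18 alternatives: with library totals (0.11), with totals that leave out the members (0.19), in DESeq2 (0.22, adjusted p = 0.0928), in limma on log2 of CPM plus 1 or 0.1 (0.097 and 0.10) and without RSeT replicate 1 (0.20). LTR7C stood at -0.15 in RSeT against primed cells (SE 0.076; adjusted p = 0.119, edgeR), where scaling on transposons and satellites gave -0.31 with a call and library totals gave -0.28 with a call. It stood at 0.12 in RSeT+DT against primed cells (SE 0.083; adjusted p = 0.269, edgeR), with -0.17 under library totals, also without a call.

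Relative to HERVH-int, LTR7C had 0.297 and 0.324 counts per 1000 in the RSeT+DT libraries, 0.440 and 0.468 in the RSeT libraries, against 1.77 and 1.47 in the primed libraries. That ratio fell by 0.54 (SE 0.099), 1.84 (SE 0.097) and 2.39 (SE 0.10) on the log2 scale in RSeT+DT against RSeT, RSeT against primed and RSeT+DT against primed cells, each with a call in edgeR (adjusted p = 1.52e-07, 5.01e-78 and 9.8e-117).

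LTR7A was near the limit of detection, with 20 and 12 counts in the RSeT+DT libraries, 49 and 21 in the RSeT libraries, against 12 and 18 in the primed libraries. That is 1.53 and 1.04 CPM, 1.28 and 1.22 CPM, and 0.713 and 1.32 CPM in the same order, and the groups overlapped. No comparison passed (log2 fold change 0.20, SE 0.37; 0.47, SE 0.37; and 0.67, SE 0.42, in RSeT+DT against RSeT, RSeT against primed and RSeT+DT against primed cells; adjusted p = 0.703, 0.312 and 0.2, edgeR). Each of these SEs was larger than every TMM log2 fold change of LTR7B and LTR7C in size, so a change of that size could have been missed. Its ratio to HERVH-int fell by 1.22 (SE 0.40; adjusted p = 0.00292, edgeR) in RSeT against primed cells, a call lost without primed replicate 2 (-0.82), and by 1.82 (SE 0.44; adjusted p = 4.44e-05, edgeR) in RSeT+DT against primed cells. The log2 difference of -0.60 (SE 0.38) in RSeT+DT against RSeT cells did not pass (adjusted p = 0.143, edgeR).

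**Figure D2:**
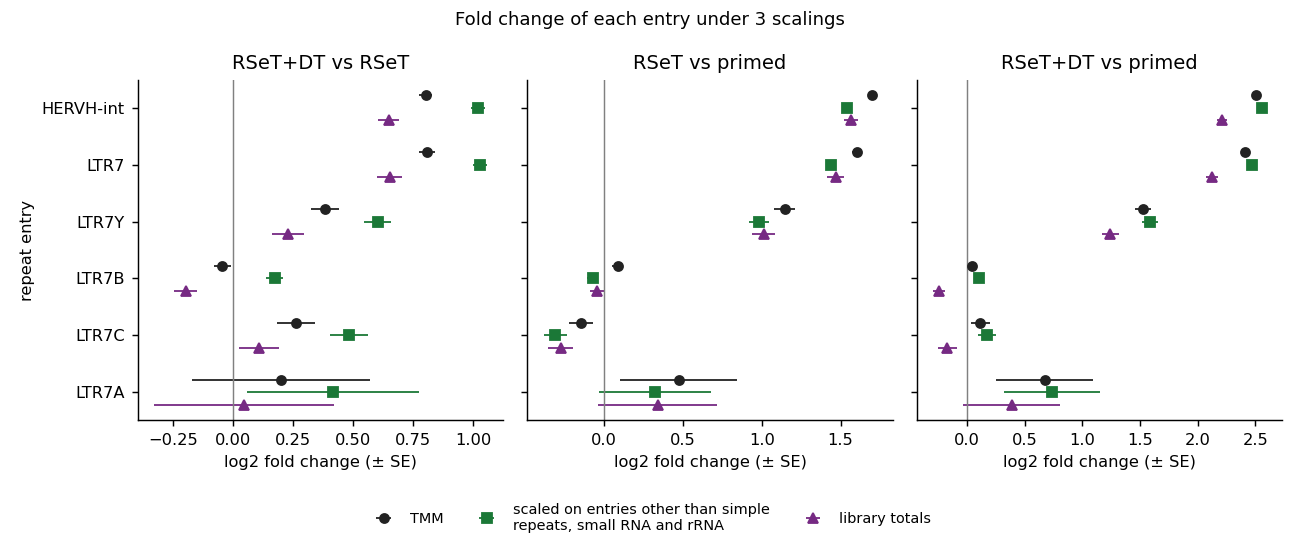
Log2 fold change (x axis, points with ± SE bars) of the 6 entries in the 3 comparisons, with circles for TMM, squares for scaling on entries other than simple repeats, small RNA and ribosomal RNA, and triangles for library totals. HERVH-int, LTR7 and LTR7Y lie right of 0 under all 3 scalings, with HERVH-int at 0.80, 1.02 and 0.65 in RSeT+DT vs RSeT, while LTR7B lies on both sides of 0.

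With TMM, 4 of the 6 entries rose and none fell in RSeT+DT against RSeT cells. Over the whole table the rising share there was 25.1% and the falling share 17.4%. The 4 were HERVH-int, LTR7, LTR7Y and LTR7C. In RSeT against primed cells 4 rose (HERVH-int, LTR7, LTR7Y and LTR7B) and none fell, beside a background of 22.8% rising and 23.8% falling. Against primed cells, RSeT+DT cells had 3 that rose (HERVH-int, LTR7 and LTR7Y) and none that fell, beside a background of 25.1% rising and 20.6% falling. The median log2 fold change over the 6 entries was 0.32, 0.81 and 1.10 in these comparisons, against 0.027, -0.030 and -0.0089 over all 4665 features. With library totals 3 entries rose and 1 fell in each comparison, and the background shares that rose and fell were 16.9% and 24.8% in RSeT+DT against RSeT, 14.6% and 32.9% in RSeT against primed, and 13.1% and 38.3% in RSeT+DT against primed cells. With scaling on transposons and satellites 5 entries rose and none fell in RSeT+DT against RSeT, 3 rose and 1 fell in RSeT against primed, and 4 rose and none fell in RSeT+DT against primed cells. The background shares over 1151 features were 22.7% and 20.8%, 30.1% and 26.5%, and 32.3% and 29.6% for rises and falls in that order. That scaling shifted log2 fold changes by 0.22, -0.16 and 0.058 in the median, in the same order, and library totals shifted them by -0.15, -0.13 and -0.28. The rises of HERVH-int, LTR7 and LTR7Y are larger than these shifts and passed under each of these scalings. The margin was smallest for LTR7Y in RSeT+DT against RSeT cells. It stood there at 0.38 with TMM, 0.60 with scaling on transposons and satellites and 0.23 with library totals.

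The make-up of the LTR counts moved toward LTR7 itself. LTR7 held 97.7% and 97.6% of the summed counts of the 5 LTR7 entries in the RSeT+DT libraries, 96.1% and 96.2% in the RSeT libraries, against 90.2% and 90.5% in the primed libraries. LTR7B held 1.56% and 1.70% in the RSeT+DT libraries, 2.96% and 2.81% in the RSeT libraries, against 7.87% and 7.63% in the primed libraries. The exact 95% intervals of LTR7B were 1.64% to 1.76% in RSeT+DT replicate 2, 2.74% to 2.89% in RSeT replicate 2 and 7.40% to 7.85% in primed replicate 2, for counting error only. LTR7C held 0.226% and 0.246% in the RSeT+DT libraries, 0.330% and 0.352% in the RSeT libraries, against 1.15% and 0.989% in the primed libraries. LTR7Y, the lettered variant that rose in all 3 comparisons, held a smaller share in RSeT+DT libraries (0.462% and 0.483%) than in RSeT (0.635% and 0.612%) and primed libraries (0.784% and 0.829%). For LTR7, LTR7B, LTR7C and LTR7Y the shares of the 3 groups did not overlap. How many of all features lack such overlap was not counted. The shares are parts of 1 sum, so a larger share of LTR7 leaves less for the lettered entries. In the fit with LTR7 as the divisor, the ratio to LTR7 fell in RSeT+DT against RSeT for LTR7B (-0.85), LTR7C (-0.55) and LTR7Y (-0.43). In RSeT against primed it fell for LTR7B (-1.51), LTR7C (-1.75), LTR7Y (-0.46) and LTR7A (-1.12), the last from few counts. Each had a call in edgeR. The share of all features that fell relative to LTR7 was not counted. Relative to HERVH-int, with which LTR7 moved, 66.8% and 93.6% of all features fell in these 2 comparisons. Such falls are therefore not read as particular to the lettered variants. HERVH-int held 88.4% and 88.4% of the counts of all 6 entries in the RSeT+DT libraries, 88.2% and 88.3% in the RSeT libraries, against 86.6% and 87.0% in the primed libraries.

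**Figure D3:**
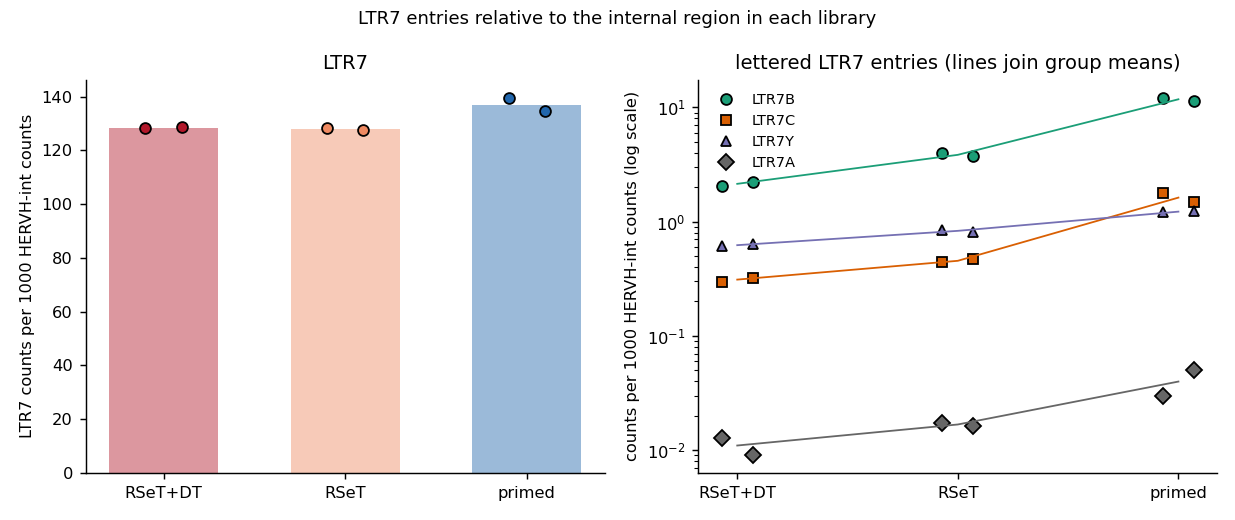
Counts of each LTR7 entry per 1000 HERVH-int counts by library, with LTR7 on the left (linear axis from 0, bars are means of 2 libraries) and the lettered entries on the right (log axis, lines join group means). LTR7 stays between 127.7 and 139.4, whereas LTR7B has 2.05 and 2.23 in RSeT+DT libraries against 12.2 and 11.4 in primed libraries.

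Repeats related to HERVH by name were read next to it, from a list of 4. HERVH48-int, an internal region listed apart from HERVH-int, and MER48, its LTR, rose in each comparison, and HERVFH19-int and HERVFH21-int, of related families with other LTRs, did not rise in any. HERVH48-int had 1030 and 1026 CPM in the RSeT+DT libraries, 678.7 and 678.3 CPM in the RSeT libraries, against 77.9 and 80.5 CPM in the primed libraries. It rose by 0.75 in RSeT+DT against RSeT and by 3.23 in RSeT against primed cells on the log2 scale (adjusted p = 1.08e-12 and 2.92e-26, edgeR). HERVH-int rose by 0.80 and 1.70 in the same comparisons. HERVFH21-int fell by 0.50, 0.59 and 1.09 in RSeT+DT against RSeT, RSeT against primed and RSeT+DT against primed cells (adjusted p = 0.0113, 0.000493 and 2.26e-06, edgeR), and the first of these calls was lost under scaling on transposons and satellites (-0.28). HERVFH19-int stood at -0.089, not passing, and fell by 0.69 and 0.78 in these comparisons. Of the 4 relatives, 2 rose and 1 fell when RSeT+DT cells were set against RSeT cells, with a median log2 fold change of 0.30 beside 0.027 over all features, of which 25.1% rose and 17.4% fell. In RSeT against primed and in RSeT+DT against primed cells 2 rose and 2 fell, beside 22.8% and 23.8%, and 25.1% and 20.6%, of all features.

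Among 1134 other tested entries with a mean count of at least 50, simple repeats left out, the pattern nearest to HERVH-int was found by distance in the plane of the fold changes RSeT against primed and RSeT+DT against RSeT, each over 4 libraries with RSeT shared. The nearest was LTR17, the LTR of HERVW, at a distance of 0.37 log2 units, with 577.2 and 545.7 CPM in the RSeT+DT libraries, 451.8 and 455.4 CPM in the RSeT libraries, against 165.6 and 171.0 CPM in the primed libraries. It rose by 0.46 in RSeT+DT against RSeT and by 1.56 in RSeT against primed cells (adjusted p = 5.65e-09 and 1.2e-19, edgeR). Next were tRNA-Glu-GAA (0.55), LTR5 (0.63), MER61A (0.63) and L1HS (0.63), the last being the youngest human LINE1. LTR7 itself lay at a distance of 0.098, LTR7Y at 0.69, LTR7A at 1.37, LTR7B at 1.82 and LTR7C at 1.92. Under scaling on transposons and satellites, 4 of these 5 entries were again among the nearest 5. The remaining entry, tRNA-Glu-GAA, is a small RNA and was left out of that scaling, so 4 was the most possible.

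**Figure D4:**
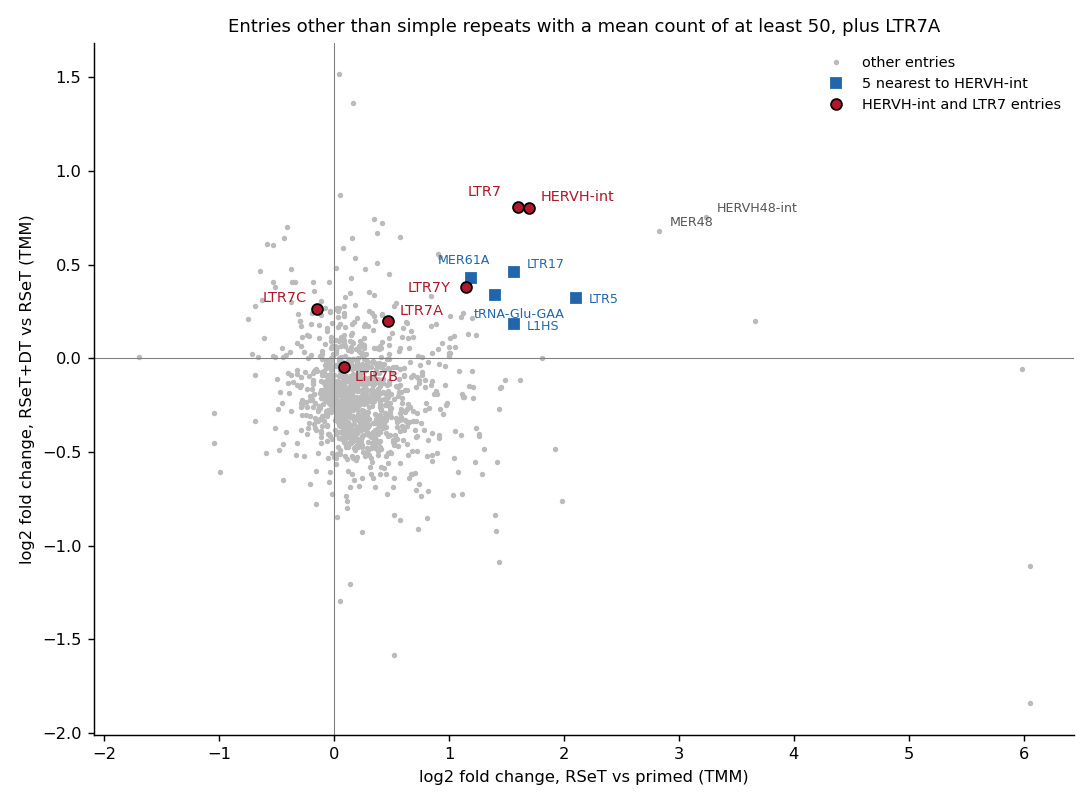
Log2 fold change in RSeT vs primed (x axis) and in RSeT+DT vs RSeT (y axis), both with TMM, for entries other than simple repeats with a mean count of at least 50, plus LTR7A; red points are HERVH-int and the LTR7 entries, blue squares the 5 nearest entries. HERVH-int (1.70, 0.80) and LTR7 (1.60, 0.81) lie together, apart from LTR7B (0.09, -0.044) and LTR7C (-0.15, 0.26), and the axes share the RSeT libraries.

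Other elements tied to pluripotent or 8-cell states did not all follow HERVH-int. The list of 11 held HERVK-int and 4 LTR5 entries, HERVL-int, ERVL-int, MLT2A1, MLT2A2, LTR12C and LTR14B. With TMM 2 rose in RSeT+DT against RSeT cells (LTR5 by 0.32 and LTR5_Hs by 0.20) and 4 fell (LTR5A, LTR5B, HERVL-int and MLT2A1), with a median of -0.030 beside 0.027 over all features, whereas under scaling on transposons and satellites 7 rose and 2 fell. The shares of all features that rose and fell were 25.1% and 17.4% with TMM and 22.7% and 20.8% with that scaling. HERVK-int, the internal region of the youngest human retrovirus family, had 16530 and 17480 CPM in the RSeT+DT libraries, 20070 and 19229 CPM in the RSeT libraries, against 335.8 and 344.5 CPM in the primed libraries. Its log2 fold change in RSeT+DT against RSeT cells turned with the scaling, at -0.056 with TMM (adjusted p = 0.111, edgeR) and 0.16 with scaling on transposons and satellites (adjusted p = 9.33e-06, edgeR). In RSeT against primed cells 8 of the 11 rose and none fell, with a median of 0.43 beside -0.030 over all features, and scaling on transposons and satellites gave 7 and 2. Of all features 22.8% rose and 23.8% fell with TMM, and 30.1% and 26.5% with that scaling. Setting RSeT+DT against primed cells, 6 rose and 2 fell, with a median of 0.40 beside -0.0089 over all features, of which 25.1% rose and 20.6% fell. Scaling on transposons and satellites gave 7 and 1 there, beside 32.3% and 29.6% of all features.

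A list of 12 LTRs and internal regions used in trophoblast and placenta was read as a check for another cell type. Its summed level was 2663 to 2702 CPM in the RSeT+DT libraries, 2891 to 2963 CPM in the RSeT libraries, and 2282 to 2368 CPM in the primed libraries, and none of its entries was at 0 in all libraries. Comparing RSeT+DT with RSeT cells, 4 of its 12 entries rose and 6 fell, in RSeT against primed 8 rose and 2 fell, and in RSeT+DT against primed 7 rose and 3 fell. The medians were -0.14, 0.40 and 0.24 beside 0.027, -0.030 and -0.0089 over all features. The all-feature shares of rises and falls were 25.1% and 17.4%, 22.8% and 23.8%, and 25.1% and 20.6% in the same comparisons. Scaling on transposons and satellites gave 6 rises and 1 fall, 7 and 3, and 8 and 3, beside all-feature shares of 22.7% and 20.8%, 30.1% and 26.5%, and 32.3% and 29.6%. LTR17, the entry nearest to HERVH-int above, belongs to this list. The part of such cells in the HERVH values was not tested, and gene markers of the cell state were not used here, since both tables hold repeats.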

How the data were processed

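Total RNA of 6 H9 libraries was analysed from 2 deposited tables. The first holds raw counts per repeat name, as deposited by the authors. The second holds CPM, which the authors computed per 1000000 counts of its 7383 listed entries, within 0.00442 CPM of a recomputation. The build was GRCh38/hg38 and the tools named are STAR 2.7.8a, Trimmomatic 0.39, Subread 2.14.2 and featureCounts, per the submitters' processing notes. How multimapping reads were treated decides how they are split among LTR7 variants; this, the strand setting and the repeat annotation were not given in the sources at hand. Per the labels' protocols, libraries came from a stranded total RNA kit.

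Entries were kept by filterByExpr (at least 10 counts, total of 15), which left 4665, and tested with edgeR 4.0.16 (R 4.3.3; TMM, quasi-likelihood, group as the only term, all 6 libraries, Benjamini-Hochberg over all entries, threshold 0.05). The common biological coefficient of variation was 5.49%. A second fit over the whole table used HERVH-int counts as library sizes. Each SE was obtained as the absolute fold change over the root of F. DESeq2 1.42.0 and limma 3.58.1 were alternatives. Levels are deposited CPM. Intervals are Clopper-Pearson (SciPy 1.17.1). The named entries are all members, lists of relatives and markers, and the 5 entries nearest to HERVH-int. Members, lists and tests were chosen with earlier results of these data known. Sequences of the elements were not used here.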

Additional observations from a re-analysis of the deposited data

How the results depend on the processing

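HERVH-int, LTR7 and LTR7Y kept their direction and their call in all 18 alternatives of each comparison, with HERVH-int between 0.65 and 1.02 in RSeT+DT against RSeT, 1.54 and 1.75 in RSeT against primed, and 2.21 and 2.58 in RSeT+DT against primed cells. No member fell with TMM, but 1 did under the following settings. In RSeT+DT against RSeT it was LTR7B with library totals, with totals that leave out the members, with a mean count of at least 50, and in limma on log2 of CPM plus 1 or 0.1. In RSeT against primed it was LTR7C with library totals, transposon and satellite scaling, member-free totals and both limma fits. In RSeT+DT against primed it was LTR7B with library totals and both limma fits. LTR7B turned to 0.17 in RSeT+DT against RSeT under transposon and satellite scaling. It turned in RSeT against primed to -0.045 with library totals, -0.073 with that scaling and -0.046 in both limma fits. In RSeT+DT against primed it turned to -0.24 with library totals and both limma fits, -0.081 with member-free totals and -0.037 with a mean count of at least 50. LTR7C turned there to -0.17 with library totals, -0.0061 with member-free totals and -0.16 in both limma fits. LTR7A in RSeT+DT against RSeT turned to -0.14 without RSeT+DT replicate 1 and reached 0.47 with another library left out. The cause was not tested.

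With simple repeats, small RNA and ribosomal RNA out of the denominator, HERVH-int held 18.7% of counts in RSeT+DT cells, 10.3% in RSeT cells and 4.05% in primed cells. Counts over all features moved by over 1.5 times in these cases. For RSeT+DT against RSeT, rises numbered 1170 with TMM and 770 or 758 in limma. For RSeT against primed, rises numbered 1064, 683 with library totals and 641 or 622 in limma, and falls 1110 but 686 in DESeq2. For RSeT+DT against primed, rises numbered 1173, 609 with library totals and 628 or 621 in limma, and falls 962, 1787, 1895 and 1841. Transposon and satellite scaling, with 1151 features tested, gave 261 rises and 239 falls, 346 and 305, and 372 and 341 in the 3 comparisons. Relative to HERVH-int, rises numbered 30 in RSeT+DT against RSeT, 10 in DESeq2 and 16 without RSeT replicate 2, and 47 in RSeT against primed, 29 in DESeq2.

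The labels do not say whether same-numbered libraries were paired. The deviations of replicate 1 from replicate 2 correlated across features at 0.022 between RSeT+DT and RSeT, -0.042 between RSeT+DT and primed, and 0.038 between RSeT and primed cells. Of the 4665 features, 3433 were simple repeats. Counting noise in entries with few counts weakens such a correlation, so these values do not decide whether libraries were paired. The replicate block changed no member's call, with HERVH-int at 0.80, 1.70 and 2.50, and all-feature rises of 1148, 1053 and 1166.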
